A study of Mus musculus with 31 samples.

Results

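The genes described here encode 3 families of phase II conjugating enzymes of the mouse liver: UDP-glucuronosyltransferases (Ugt), glutathione S-transferases (Gst) and sulfotransferases (Sult). Members were all genes whose only symbol in the platform's annotation begins with Ugt and a number, with Gsta, Gstm, Gstp, Gstt, Gsto, Gstz or Gstk and a number, or with Sult and a number, pseudogenes left out. This rule gave 50 of the 22180 genes measured, namely 11 Ugt, 18 Gst and 21 Sult genes, each read by 1 probe set. A further 9 probe sets were annotated to several genes including a family member and were not analysed here, and no member of the Ugt1a locus was among the 50.

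Livers were taken in the morning from 31 mice, all C57BL/6 males of 3 to 4 months, and each gave 1 array. Of the mice fed freely throughout, 8 were sampled fed and 8 at the end of a first fast of 16 h. The other mice had gone through 2 earlier fasts of 16 h within 8 weeks, returning to their growth curve after each, and 8 of these were sampled fed and 7 at the end of another fast of 16 h. The comparisons ask what a final fast does to these genes and whether a history of fasting leaves a difference. The labels name no litter, cage or batch, and all mice were males of a single strain and age. They describe more mice without earlier fasts than gave arrays here, and beyond RNA quality how the arrays were chosen is not known.

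Phase II enzymes attach a polar group to drugs, hormones, bile acids and bilirubin, so that the product can be excreted in bile or urine. Ugt enzymes sit in the endoplasmic reticulum and use UDP-glucuronic acid, Gst enzymes are mostly cytosolic and use glutathione, and cytosolic Sult enzymes use PAPS, the activated form of sulfate. Their genes lie in clusters of related copies, and in liver they are known targets of the nuclear receptors Car, Pxr and Ppara, of the dioxin receptor Ahr and of Nrf2, the regulator of antioxidant genes. Many are also expressed differently in male and female mice.

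Values are RMA signals, taken to be on a log2 scale, on which a difference of 1 is a doubling. Array medians lay between 2.01 and 2.07, Pearson's r between arrays over all genes was 0.976 to 0.993, and no arrays were identical. The summed level of 10 hepatocyte markers stayed between 15.06 and 15.19 on all arrays. That of 12 Kupffer cell markers had medians of 9.64 in fed and 9.01 in fasted mice with 0 earlier fasts, and of 9.63 and 9.27 with 2, where Kupffer cells are the macrophages of the liver. Of these 12 markers, 8 fell with the final fast in the first comparison and 4 in the second (66.7% and 33.3%), and of 10 stellate cell and fibroblast markers 4 and 3 fell (40% and 30%). None of these Kupffer or stellate markers passed the test as higher. Of all genes 6.23% and 5.52% fell in these comparisons. In either direction, 12.5% and 11.6% of all genes passed, and 29.1% and 26.9% of those with a mean of 4 or more over all arrays. Folr2, a folate receptor of resident macrophages, changed by -1.62 and -1.11, and Col3a1, a fibrillar collagen, by -0.92 and -1.09. Of the 10 hepatocyte markers 3 rose and 2 fell in the first comparison and 2 rose and 1 fell in the second, or 50% and 30% called. That share was above the one among genes with a mean of 4 or more in the first comparison and near it in the second. Of 10 endothelial markers 1 rose in the first and 1 rose and 1 fell in the second, or 10% and 20%, below that of such genes. None of the 6 cholangiocyte and 8 lymphocyte markers was called in either response. Their summed levels were the lowest of these cell types, with group medians of 5.40 to 5.56 and of 4.92 to 5.04. At such levels a lack of calls does not show that these cells were unchanged. The part of these markers in the results below was not tested, and in whole tissue fewer cells of a type and less RNA per cell cannot be told apart.

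Differences were tested with limma, a linear model with moderated variances, and p-values were adjusted by the method of Benjamini and Hochberg across the 22180 genes; below, called means an adjusted p below 0.05. Members differed in how bright they were. A mean signal under 4 in all 4 groups was found for 19 of the 50 members, of which 2 were Ugt (Ugt2b37, Ugt8a), 2 Gst (Gsto2, Gstt4) and 15 Sult genes. All but 1 of the 8 Sult2a genes, Sult3a1 and Sult3a2 were in this dim set, and Sult2a and Sult3a1 enzymes are known to be predominantly female in mouse liver. Array signals of different probe sets are not set against each other here, and no limit of detection is available, so a dim signal does not show that a gene is off.

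The promoters of 4 Gst genes that did not all respond in the same direction are shown. They are RefSeq sequences of GRCm38.p6, the 250 bases before the annotated start, 5′ to 3′ on the strand of the gene. Gstm3 and Gsta3 had the largest falls with the final fast among Gst genes, Gstt1 fell while its neighbour Gstt2 rose, and Gsto1 rose. Capitals mark the core of the antioxidant response element (TGACNNNGC, the element bound by Nrf2) and the CCAAT box (CCAAT, or ATTGG when read on the other strand).
Gstm3, chr3:107969175-107969424, minus strand: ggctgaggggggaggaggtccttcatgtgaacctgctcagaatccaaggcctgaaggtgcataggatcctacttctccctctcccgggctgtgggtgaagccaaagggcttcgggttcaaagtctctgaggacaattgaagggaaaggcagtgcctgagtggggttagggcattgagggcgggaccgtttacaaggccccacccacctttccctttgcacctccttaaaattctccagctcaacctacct
Gsta3, chr1:21240335-21240584, plus strand: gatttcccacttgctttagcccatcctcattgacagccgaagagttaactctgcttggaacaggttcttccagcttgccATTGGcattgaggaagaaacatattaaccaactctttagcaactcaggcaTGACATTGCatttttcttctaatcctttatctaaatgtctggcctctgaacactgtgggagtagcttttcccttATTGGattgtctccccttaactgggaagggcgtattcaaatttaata
Gstt1, chr10:75797732-75797981, minus strand: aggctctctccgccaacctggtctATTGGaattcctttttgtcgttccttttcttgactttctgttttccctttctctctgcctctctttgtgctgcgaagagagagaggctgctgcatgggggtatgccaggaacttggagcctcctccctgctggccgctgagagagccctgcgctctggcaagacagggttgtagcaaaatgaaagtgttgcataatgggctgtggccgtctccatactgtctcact
Gsto1, chr19:47854723-47854972, plus strand: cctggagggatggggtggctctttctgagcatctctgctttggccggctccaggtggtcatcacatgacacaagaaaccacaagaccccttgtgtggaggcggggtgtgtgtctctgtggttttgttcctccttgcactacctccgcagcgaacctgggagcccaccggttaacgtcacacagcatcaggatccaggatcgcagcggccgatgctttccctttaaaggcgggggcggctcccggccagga

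Gsta3 held the antioxidant element core at -121 from the start and a CCAAT box, on the opposite strand, at -171 and at -47. Gstt1 held a CCAAT box at -226, and neither motif was in the windows of Gstm3 and Gsto1. A match is a run of letters and not evidence of binding. RefSeq promoter windows, which run on 50 bases past the start, were given for 43 of the 50 members, with 53 windows in all because 9 genes had more than 1. Over both strands, the antioxidant core was in 3.77% of member windows (Gsta3 and Gstm7) against 12.4% of 32851 windows of all genes. The core of the dioxin response element (GCGTG, bound by Ahr) was in 17% of member windows against 32.4%.

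The families differed in the other letters searched. The CCAAT box was in 78.3% of the 23 Gst windows, from 11 of the 16 Gst genes with a window, against 37.4% of all windows. A core of the site of the liver factor Hnf1 (GTTAAT) was in 35% of the 20 Sult windows against 7.1%, and the TATA box (TATAAA) in 40% against 13.6%. The hexamer read by many nuclear receptors (AGGTCA) was in 50% of the 10 Ugt windows, all of Ugt2b genes, against 16.3%. Windows of 1 gene overlap and copies within a cluster share sequence, so these shares are a description.

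In mice with 0 earlier fasts, the final fast was followed by lower signals of 19 members and higher signals of 4. The 23 members called were 46% of the 50, against 12.5% of all genes, and the shares of all genes called were 6.25% for higher and 6.23% for lower. Among the Gst genes 11 of 18 fell and 2 rose, among the Ugt genes 5 of 11 fell and none rose, and among the Sult genes 3 of 21 fell and 2 rose. The median log2 change was -0.41 over Gst, -0.36 over Ugt and 0.03 over Sult genes, with a median of -0.00364 over all genes. Most Sult genes were dim. Over the 29 members with a mean of 4 or more over all 31 arrays, the median was -0.41. Calls were more frequent among brighter genes, so the same count was made among genes with a mean of 4 or more over all 31 arrays, where 20 of 29 members (69%) were called against 29.1% of 7863 genes. An unadjusted p under 0.05 was reached by 26 members and by 21.8% of all genes. The arrays of fed and fasted mice did not overlap for 10 members, 8 of them lower when fasted, and such separation held for 4.28% of all genes.

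**Figure D1:**
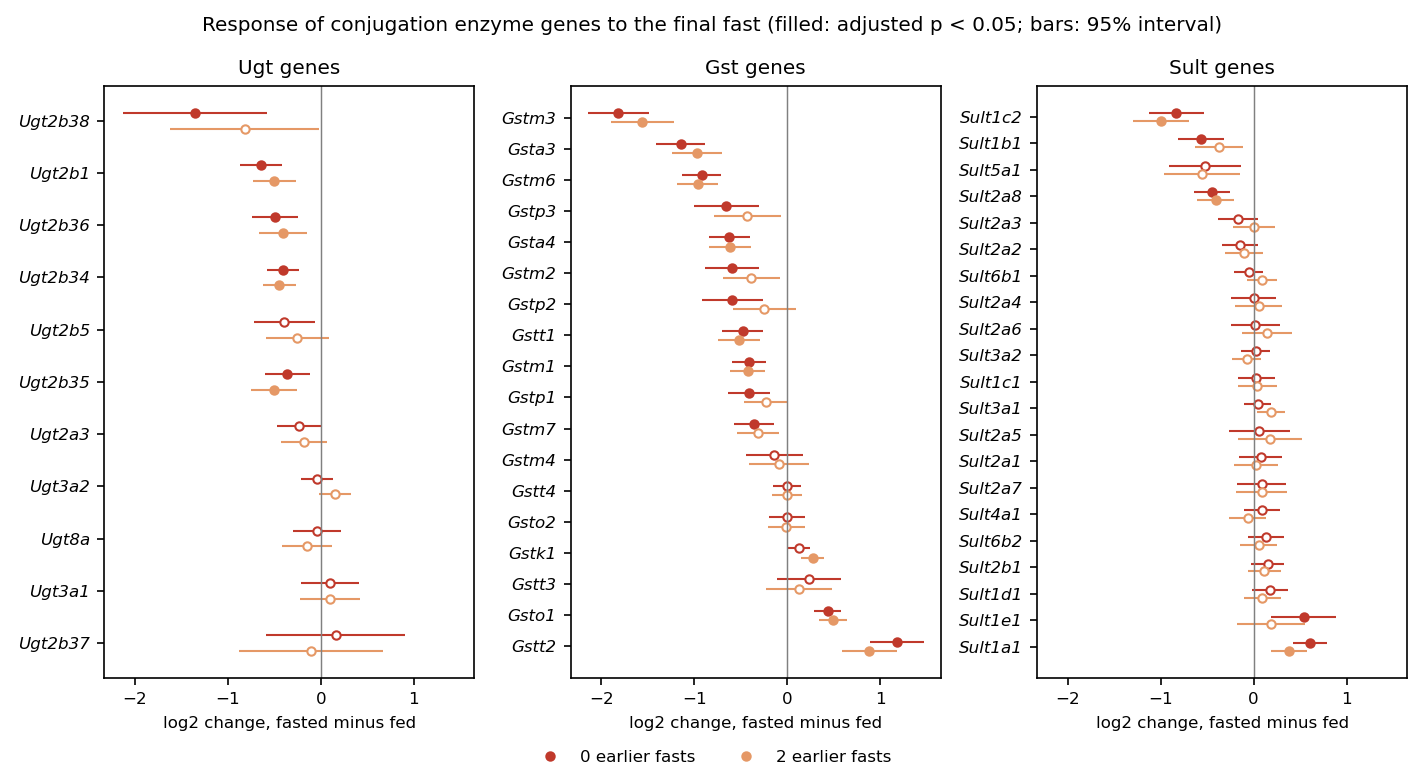
Log2 change of signal (x axis, fasted minus fed) for each of the 50 conjugation enzyme genes (y axis), by family, in mice with 0 (red) and with 2 (orange) earlier fasts; bars are 95% intervals and filled points passed an adjusted p of 0.05. Gst changes ran from -1.82 for Gstm3 to 1.18 for Gstt2 with 0 earlier fasts, while most of the dim Sult genes lie near 0.

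Mice with 2 earlier fasts showed the same kind of response to their final fast. In these other mice 12 members fell and 4 rose, so 16 of 50 were called (32%, against 11.6% of all genes, 6.06% higher and 5.52% lower). By family, 6 Gst genes fell and 3 rose, 4 Ugt genes fell, and 2 Sult genes fell and 1 rose. Among genes with a mean of 4 or more over all 31 arrays, 15 of 29 members (51.7%) were called against 26.9% of all such genes. An unadjusted p under 0.05 was reached by 23 members and by 21.7% of all genes. Fed and fasted arrays did not overlap for 7 members, 4 of them lower when fasted, and for 4.37% of all genes.

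The mu class of Gst, Gstm, is a cluster of abundant liver enzymes that conjugate epoxides and many drugs, and 6 members of it were measured. All 6 had a lower mean in fasted mice in both comparisons, and 5 were called with 0 and 3 with 2 earlier fasts. Gstm3 gave the largest change of all 50 members. With 0 earlier fasts its signal was 6.77, 7.14 and 7.56 (lowest, median and highest of 8 arrays) in fed mice and 4.70, 5.28 and 5.78 in fasted mice. With 2 earlier fasts it was 6.53, 7.02 and 7.33 fed and 4.58, 5.38 and 5.90 fasted. Every fasted array was below every fed array in both sets of mice. The change was -1.82 (SE 0.16, limma adjusted p 1.57e-10), a 3.53-fold lower signal, and -1.56 (SE 0.17, limma adjusted p 1.18e-08), or 2.95-fold lower.

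Gstm6, the neighbour of Gstm3 in the cluster, also separated fed from fasted mice without overlap in both comparisons. Its signal was 4.72, 5.08 and 5.49 fed and 3.92, 4.14 and 4.41 fasted with 0 earlier fasts, and 4.86, 5.07 and 5.28 fed and 3.77, 4.16 and 4.39 fasted with 2. The changes were -0.92 (SE 0.10, limma adjusted p 3.2e-08) and -0.97 (SE 0.11, limma adjusted p 3.04e-08). Gstm2 lay at 5.13, 5.52 and 6.07 in fed and 4.64, 5.00 and 5.22 in fasted mice with 0 earlier fasts, and at 4.92, 5.31 and 5.92 and at 4.71, 4.96 and 5.26 with 2. Its groups overlapped in both comparisons, and the fall of 0.60 was called with 0 earlier fasts (limma adjusted p 0.0036), while the change of -0.39 with 2 was not (limma adjusted p 0.0982).

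Gstm1, the main mu class enzyme of mouse liver, changed by -0.41 (limma adjusted p 0.001) and -0.42 (limma adjusted p 0.00115). Its highest fasted array, at 6.87, was just under its lowest fed array, at 6.89, with 0 earlier fasts, and the groups overlapped with 2. Gstm7 fell by 0.36 with 0 earlier fasts (limma adjusted p 0.0218). This call was lost without fed replicate 1, at a change of -0.28 and adjusted p of 0.0643, or without fed replicate 8, at -0.32 and 0.0519. Its change with 2 earlier fasts was -0.32 (limma adjusted p 0.0608). Gstm4 was not called, with changes of -0.14 and -0.09.

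The alpha class, which handles lipid peroxides and steroids, was measured by Gsta3 and Gsta4, and both fell in both comparisons. Gsta3 lay at 9.89, 10.05 and 10.24 in fed and at 8.31, 8.95 and 9.32 in fasted mice with 0 earlier fasts. With 2 earlier fasts the values were 9.81, 10.02 and 10.11 fed and 8.36, 8.93 and 9.48 fasted. The fed arrays kept within a narrow band and the fasted arrays lay below all of them, spread over a whole log2 unit or more. The changes were -1.15 (SE 0.13, limma adjusted p 2.81e-08) and -0.97 (SE 0.13, limma adjusted p 1.66e-06).

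Gsta4, whose enzyme is specialised in 4-hydroxynonenal, a product of lipid peroxidation, lay at 7.47, 7.78 and 8.03 fed and 6.88, 7.19 and 7.41 fasted with 0 earlier fasts. With 2 earlier fasts it lay at 7.57, 7.86 and 8.31 fed and 6.74, 7.26 and 7.57 fasted. The groups were apart in the first comparison and touched at 7.57 in the second. The changes were -0.62 (limma adjusted p 5.71e-05) and -0.61 (limma adjusted p 0.000139).

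The 3 pi class genes, Gstp1, Gstp2 and Gstp3, are neighbouring copies, and pi class enzyme is known to be more abundant in male than in female mouse liver. All 3 fell with 0 earlier fasts and none was called with 2. Gstp3 lay at 6.32, 6.93 and 7.46 fed and 5.89, 6.23 and 6.60 fasted with 0 earlier fasts, and at 6.11, 6.84 and 7.51 and at 5.96, 6.29 and 6.83 with 2. Gstp2 lay at 7.72, 8.03 and 8.58 fed and 6.68, 7.56 and 8.16 fasted, and with 2 earlier fasts at 7.40, 7.85 and 8.61 and at 7.40, 7.68 and 7.93. Fed and fasted arrays of both genes overlapped in each comparison. The changes were -0.65 (limma adjusted p 0.00713) and -0.43 (adjusted p 0.126) for Gstp3, -0.59 (adjusted p 0.0102) and -0.25 (adjusted p 0.442) for Gstp2, and -0.41 (adjusted p 0.0102) and -0.23 (adjusted p 0.256) for Gstp1. Calls in one comparison and not in the other do not show a difference between them, and the interaction was not called for any of the 3. Without probe sequences, how far each probe set reads the other copies was not tested.

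The theta class was split. Gstt2 rose in both comparisons while Gstt1, which lies in the same cluster of 4 genes with Gstt4 alone between them, fell. Gstt2 lay at 6.13, 6.49 and 6.83 in fed and 6.97, 7.74 and 8.17 in fasted mice with 0 earlier fasts, and at 6.03, 6.69 and 7.14 fed and 7.44, 7.58 and 7.70 fasted with 2. Every fasted array was above every fed array in both, with changes of 1.18 (SE 0.14, limma adjusted p 9.03e-08) and 0.89 (SE 0.15, limma adjusted p 3.41e-05), or 2.27-fold and 1.85-fold higher. Fasted arrays lay closer together with 2 than with 0 earlier fasts.

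Gstt1, whose enzyme acts on small halogenated compounds, lay at 8.71, 8.96 and 9.22 fed and 8.11, 8.56 and 8.77 fasted with 0 earlier fasts, and at 8.61, 8.94 and 9.17 fed and 8.03, 8.43 and 8.78 fasted with 2. The groups overlapped slightly, and the changes were -0.48 (limma adjusted p 0.00159) and -0.51 (limma adjusted p 0.00119). Gstt3 was not called, with changes of 0.24 and 0.13, and Gstt4 was dim.

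Of the remaining Gst genes, Gsto1 rose in both comparisons. It encodes an omega class enzyme that reduces dehydroascorbate and methylated arsenic rather than conjugating drugs. Its signal was 7.70, 7.89 and 8.11 fed and 8.10, 8.36 and 8.47 fasted with 0 earlier fasts, and 7.67, 7.92 and 8.11 fed and 8.24, 8.37 and 8.50 fasted with 2. The groups barely met in the first comparison and were apart in the second, with changes of 0.44 (limma adjusted p 2.22e-05) and 0.49 (limma adjusted p 7.34e-06). Gsto2, its neighbour, was dim.

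Gstk1, a kappa class enzyme of mitochondria and peroxisomes, was the only member called with 2 earlier fasts and not with 0. It lay at 9.87, 9.97 and 10.16 fed and 9.95, 10.11 and 10.24 fasted with 0 earlier fasts, and at 9.82, 9.93 and 10.09 fed and 10.10, 10.20 and 10.35 fasted with 2. The groups overlapped in the first comparison and not in the second. The changes were 0.13 (limma adjusted p 0.192) and 0.27 (limma adjusted p 0.0019). The test of the difference between them gave 0.14 (95% interval -0.03 to 0.32) at an unadjusted p of 0.103 in limma, with an adjusted p of 0.999.

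**Figure D2:**
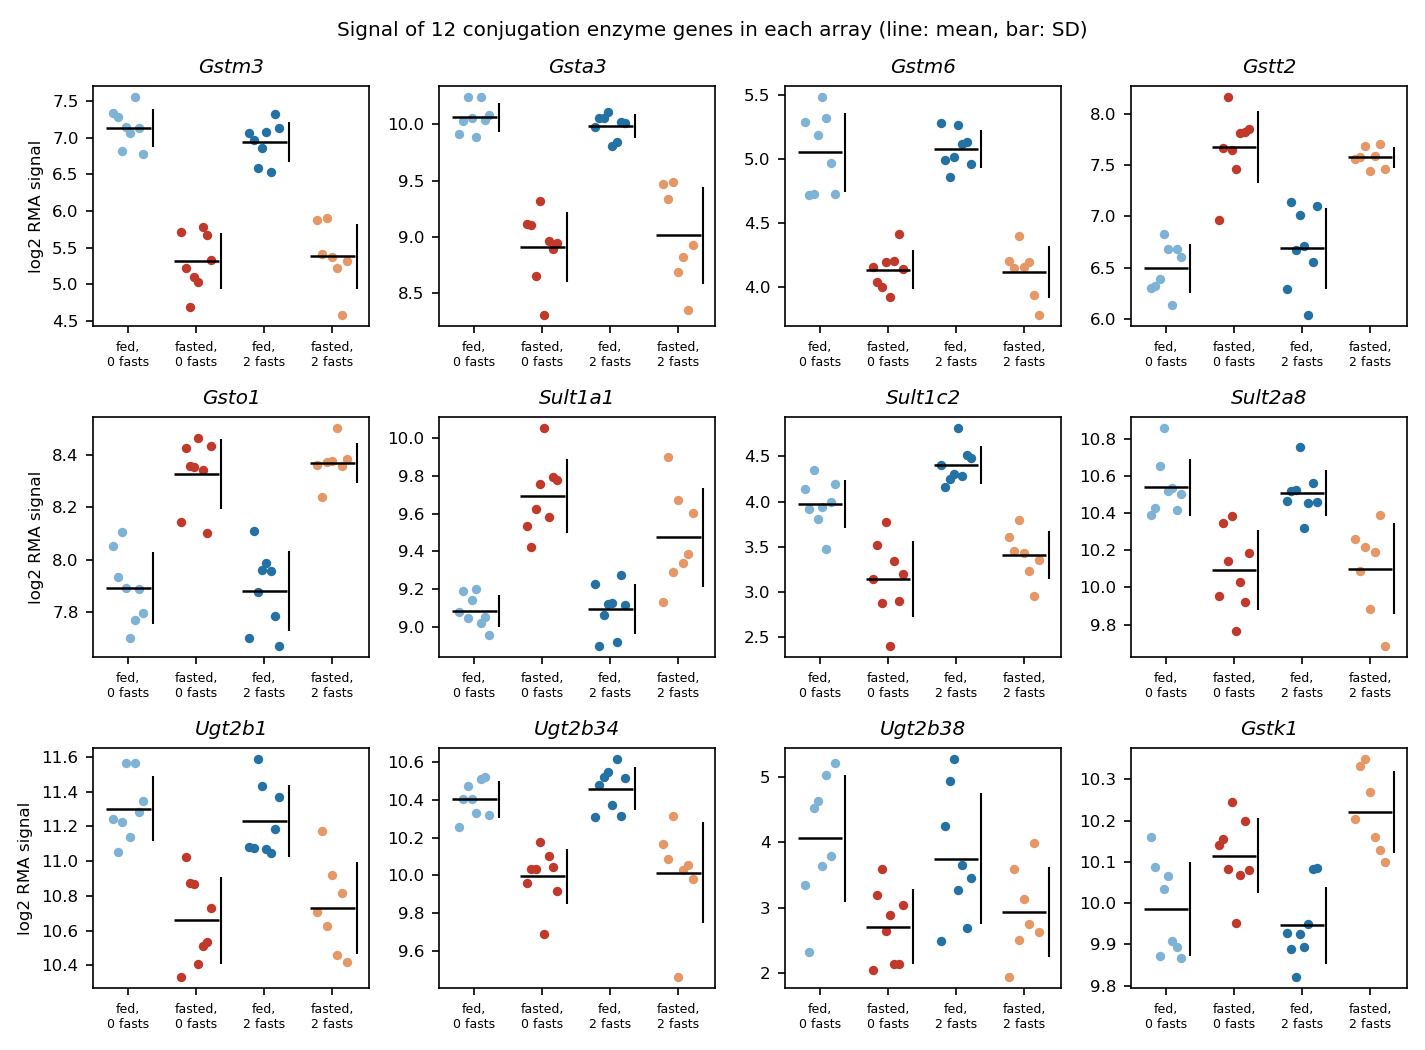
Log2 RMA signal (y axis, a scale of its own in each panel) of 12 conjugation enzyme genes in each array, by group (x axis: final state and number of earlier fasts), with the mean as a line and the SD as a bar. Gstm3, Gsta3 and Gstm6 show fasted arrays below all fed arrays and Gstt2 above them in both sets of mice, while Ugt2b38 is spread widely in fed mice.

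Among the Ugt genes, the calls lay in the Ugt2b cluster, whose enzymes glucuronidate steroids, bile acids and drugs. Of its 7 members 5 fell with 0 and 4 with 2 earlier fasts, and no Ugt gene rose. Ugt2b1 lay at 11.05, 11.26 and 11.57 fed and 10.33, 10.63 and 11.02 fasted with 0 earlier fasts, and at 11.05, 11.13 and 11.59 fed and 10.42, 10.71 and 11.17 fasted with 2. The groups were apart in the first comparison and overlapped in the second, with changes of -0.64 (limma adjusted p 5.28e-05) and -0.50 (limma adjusted p 0.00216). Ugt2b34 lay at 10.25, 10.41 and 10.52 fed and 9.69, 10.04 and 10.18 fasted, and with 2 earlier fasts at 10.31, 10.50 and 10.62 and at 9.46, 10.06 and 10.31. Its groups were apart in the first comparison and met at 10.31 in the second, with changes of -0.41 (limma adjusted p 0.000663) and -0.45 (limma adjusted p 0.000374).

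Ugt2b36 and Ugt2b35, neighbours in that cluster, fell with overlap between fed and fasted arrays in both comparisons. Ugt2b36 lay at 8.92, 9.18 and 9.39 fed and 8.03, 8.71 and 9.09 fasted with 0 earlier fasts, and at 8.72, 9.34 and 9.53 fed and 8.55, 8.79 and 9.08 fasted with 2. The changes were -0.49 (limma adjusted p 0.00446) and -0.41 (limma adjusted p 0.0279). The second call was lost, at an adjusted p of up to 0.073, without any of 7 arrays with 2 earlier fasts, namely fed replicates 2, 3, 4 and 8 and fasted replicates 2, 4 and 7. Leaving each of them out gave changes of -0.36 to -0.40.

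Ugt2b35 lay at 8.30, 8.53 and 8.76 fed and 7.71, 8.30 and 8.49 fasted with 0 earlier fasts, and at 8.31, 8.64 and 9.11 fed and 7.84, 8.05 and 8.48 fasted with 2. The changes were -0.36 (limma adjusted p 0.0392) and -0.50 (limma adjusted p 0.00409). The first call was lost without fed replicate 3, 4, 6, 7 or 8 or without fasted replicate 1, 5, 7 or 8, with changes of -0.29 to -0.36 and adjusted p values of up to 0.113. It was also lost with array quality weights, at an adjusted p of 0.0597.

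Ugt2b38 had the largest fall among Ugt genes and the widest spread. It lay at 2.32, 4.16 and 5.21 fed and 2.05, 2.77 and 3.60 fasted with 0 earlier fasts, and at 2.49, 3.56 and 5.27 fed and 1.94, 2.76 and 3.98 fasted with 2. Fed mice covered almost 3 log2 units and included values as low as those of fasted mice. The changes were -1.35 (SE 0.38, limma adjusted p 0.0135) and -0.82 (SE 0.39, limma adjusted p 0.219). The SD within groups was 0.83 for Ugt2b38 and 0.80 for the dim Ugt2b37, each larger than that of 99.9% of all genes, where the median was 0.23 over the 50 members and 0.20 over all genes.

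The other Ugt genes were not called. Ugt2b5 changed by -0.39 (limma adjusted p 0.12) and -0.25 (adjusted p 0.429), Ugt2a3, an enzyme of bile acid glucuronidation, by -0.23 and -0.18, Ugt3a1 by 0.10 and 0.10, and Ugt3a2 by -0.04 and 0.15. Ugt3a enzymes use other sugars than glucuronic acid. Ugt8a, the galactosyltransferase of myelin lipids, was dim.

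Sult genes changed in both directions. Sult1a1, the phenol sulfotransferase, rose in both comparisons. Its signal was 8.96, 9.06 and 9.20 fed and 9.42, 9.69 and 10.06 fasted with 0 earlier fasts, and 8.89, 9.12 and 9.27 fed and 9.13, 9.38 and 9.90 fasted with 2. The groups were apart in the first comparison and overlapped in the second, with changes of 0.61 (SE 0.09, limma adjusted p 4.83e-06) and 0.38 (SE 0.09, limma adjusted p 0.00418).

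Sult1c2 had the largest fall among Sult genes. It lay at 3.47, 3.97 and 4.35 fed and 2.40, 3.17 and 3.77 fasted with 0 earlier fasts, and at 4.16, 4.36 and 4.82 fed and 2.96, 3.43 and 3.80 fasted with 2. The changes were -0.83 (SE 0.14, limma adjusted p 5.33e-05), with overlap, and -1.0 (SE 0.15, limma adjusted p 6.21e-06), with none. Its mean reached 4 in fed mice with 2 earlier fasts alone.

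Sult2a8, a bile acid sulfotransferase of male mouse liver, was the one bright Sult2a gene. It lay at 10.39, 10.51 and 10.86 fed and 9.76, 10.09 and 10.39 fasted with 0 earlier fasts, and at 10.32, 10.49 and 10.76 fed and 9.68, 10.19 and 10.39 fasted with 2. The groups were apart by less than 0.01 in the first comparison and overlapped in the second, and the changes were -0.45 (limma adjusted p 0.000763) and -0.41 (limma adjusted p 0.00338). None of the other 7 Sult2a genes, all dim, was called.

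Sult1b1, whose enzyme sulfates thyroid hormones, lay at 4.74, 5.23 and 5.57 fed and 4.38, 4.62 and 4.94 fasted with 0 earlier fasts, and at 4.54, 5.06 and 5.26 fed and 4.20, 4.66 and 4.94 fasted with 2. The groups overlapped, with changes of -0.57 (limma adjusted p 0.00116) and -0.37 (limma adjusted p 0.0559). Sult1e1, the oestrogen sulfotransferase, was dim at 1.33, 1.57 and 1.94 fed and 1.54, 2.01 and 2.87 fasted with 0 earlier fasts, and at 1.27, 1.63 and 1.81 and at 1.29, 1.65 and 2.85 with 2. It rose by 0.54 (limma adjusted p 0.0356) with 0 earlier fasts, with overlap, and changed by 0.19 (adjusted p 0.633) with 2.

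The call of Sult1e1 was lost without fed replicate 2, 3, 5 or 7 or without fasted replicate 1, 2, 3 or 5. Those values of Sult1e1 were 0.43 to 0.53 at adjusted p values of up to 0.1, and array quality weights gave an adjusted p of 0.053. Sult5a1 was not called at -0.52 (limma adjusted p 0.0732) and -0.56 (adjusted p 0.0666). Without fed replicate 2 with 2 earlier fasts, its lowest fed array at 3.38, the second change was -0.75 at an adjusted p of 0.000938, and the first had an adjusted p of 0.0133. Sult1d1, which sulfates catecholamines, changed by 0.18 and 0.09 and was not called.

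The responses with 0 and with 2 earlier fasts were measured in different mice. Of the 50 members 15 were called in both, all in the same direction, 8 were called with 0 earlier fasts alone, 1 with 2 alone and 26 in neither. The sign was the same for 43 of the 50 members. Pearson's r between the changes was 0.95 over the 50 members, a description across genes that are not independent. The mean size of the change over the 15 members was 0.72 with 0 and 0.67 with 2 earlier fasts, and it was the larger with 0 for 8 of the 15.

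**Figure D3:**
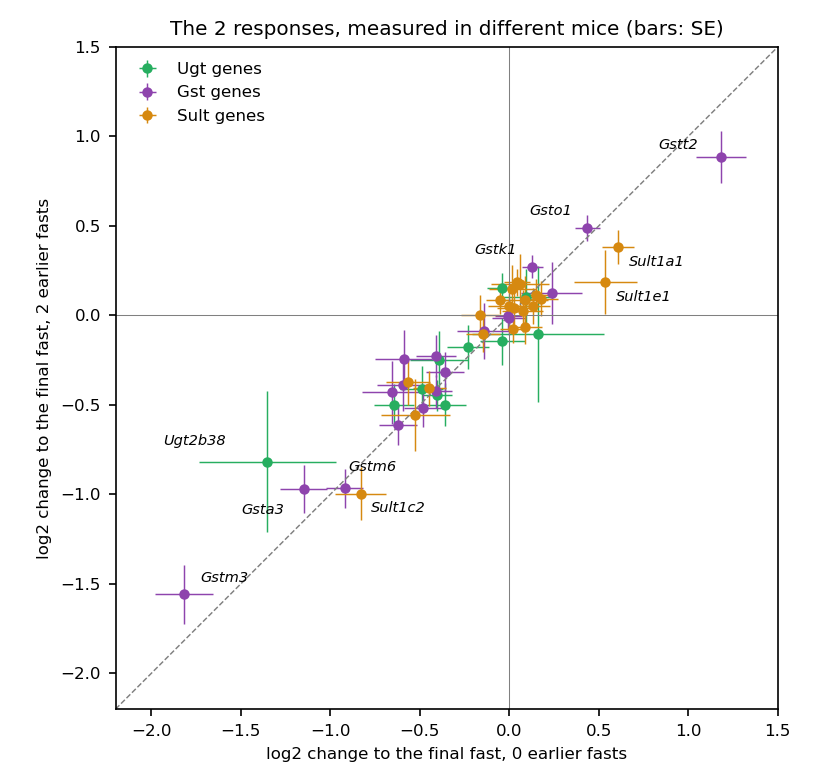
Log2 change to the final fast with 2 earlier fasts (y axis) against that with 0 earlier fasts (x axis) for the 50 conjugation enzyme genes, coloured by family, with standard errors as bars and the line of equality dashed. Gstm3 at -1.82 and -1.56 and Gstt2 at 1.18 and 0.89 are the ends of a band along that line.

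The test of the difference between the responses, the interaction of history and final fast, called 0 of the 50 members and 0% of all genes in limma. At an unadjusted p under 0.05 it held 0 members and 4.61% of all genes. The 3 members with the smallest p were Sult1a1 at -0.23 (95% interval -0.49 to 0.04, p 0.0884), Gstk1 at 0.14 (p 0.103) and Ugt3a2 at 0.19 (p 0.118), all at a limma adjusted p of 0.999. Ugt3a2 lay at 9.80, 9.92 and 10.12 fed and 9.58, 9.91 and 10.13 fasted with 0 earlier fasts, and at 9.55, 9.91 and 10.06 fed and 9.81, 10.003 and 10.32 fasted with 2, so that all 4 groups overlapped. The median distance from a member's estimate to the end of its 95% interval was 0.33 and the widest was 1.12. The size of a difference between responses that could be seen thus varied between members. The interval is for a single gene, and the test adjusted over all genes could also miss differences larger than that distance.

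A history of 2 earlier fasts left no called difference in these genes. In fed mice 0 of 50 members and 0% of all genes were called by limma, and 2 members and 5.61% of all genes had an unadjusted p under 0.05. In fasted mice these were 0, 0%, 1 member and 4.49%, and for the average of both states 0, 0%, 1 member and 5.34%. Intervals reached 0.23 to either side of the estimate for the median member in fed mice, 0.24 in fasted mice and 0.16 for the average.

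The members with the smallest p by history were Sult genes. Sult1c2, whose values are given above, was higher with 2 than with 0 earlier fasts by 0.43 in fed mice (95% interval 0.14 to 0.72, unadjusted p 0.00537, limma adjusted p 0.782). The difference was 0.26 in fasted mice (unadjusted p 0.0868, limma adjusted p 0.9998), and 0.34 averaged (0.13 to 0.55, unadjusted p 0.00209, limma adjusted p 0.835). Its fed and fasted arrays overlapped between histories. Sult6b1, a dim gene, lay at 1.19, 1.36 and 1.63 in fed mice with 0 and 1.03, 1.25 and 1.40 with 2 earlier fasts, and at 1.11, 1.34 and 1.51 and at 1.19, 1.30 and 1.41 in fasted mice. These ranges overlapped. It differed by -0.18 in fed mice (unadjusted p 0.0243, limma adjusted p 0.856), and Sult1b1 by -0.22 (unadjusted p 0.0795, limma adjusted p 0.9). In fasted mice Sult1a1 differed by -0.22 (95% interval -0.41 to -0.03, unadjusted p 0.0244) and Sult1e1 by -0.35 (unadjusted p 0.0581), both at a limma adjusted p of 0.9998. Averaged over both states, Sult6b1 differed by -0.11 (unadjusted p 0.0521, limma adjusted p 0.925) and Sult1a1 by -0.11 (unadjusted p 0.111, limma adjusted p 0.932).

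The genes that make the shared cofactors were counted next, and their shares called are to be read against the 29.1% and 26.9% of genes with a mean of 4 or more over all arrays called with 0 and 2 earlier fasts. Of 6 genes that supply or release glucuronic acid, 3 fell and 1 rose with 0 earlier fasts, and 3 fell with 2, or 66.7% and 50% called. Ugp2, which makes UDP-glucose, the precursor of UDP-glucuronic acid, fell by 0.58 (limma adjusted p 4.62e-05) and 0.77 (8.66e-07), with no overlap in either comparison. Slc35d2, a nucleotide sugar transporter, changed by -0.43 and -0.58, both called. Ugdh, the dehydrogenase that makes UDP-glucuronic acid itself, changed by -0.25 (adjusted p 0.103) and -0.34 (adjusted p 0.019). The second call was lost without fed replicate 2 at -0.29, or without fasted replicate 4 at -0.31, both at an adjusted p of 0.0526 to 0.0527.

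Uxs1, which turns UDP-glucuronic acid into UDP-xylose, changed by -0.46 (limma adjusted p 0.0373) and -0.41 (adjusted p 0.0829). The call was lost with any of fed replicates 1, 3, 4, 5 and 7 or fasted replicates 1, 3, 5 and 8 left out, at changes of -0.38 to -0.45 and adjusted p of up to 0.0985. Gusb, the lysosomal enzyme that splits glucuronides, rose by 0.29 (limma adjusted p 0.02) and changed by 0.26 (adjusted p 0.0554), and the first was lost without fed replicate 6 at 0.26 or fasted replicate 5 at 0.25.

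Of 10 genes of PAPS supply and sulfur handling, 3 fell and 1 rose with 0 earlier fasts and 3 fell with 2. The shares called were 40% and 30%, the second near that of all such genes. Papss1, a PAPS synthase, lay at 5.07, 5.66 and 5.75 fed and 3.93, 4.26 and 4.47 fasted with 0 earlier fasts, and at 4.94, 5.2 and 5.62 and at 3.94, 4.41 and 4.83 with 2. The groups were apart in both, with changes of -1.29 (limma adjusted p 1.05e-09) and -0.83 (limma adjusted p 1.24e-05), and the interaction had an adjusted p of 0.999. Papss2, the synthase that predominates in liver, changed by -0.34 and -0.39, and Slc26a1, a sulfate transporter, by -0.47 and -0.42, all called. Suox, which oxidises sulfite to sulfate, rose by 0.34 (limma adjusted p 0.00323) with 0 earlier fasts and changed by 0.25 (adjusted p 0.0511) with 2, which passed 0.05 in 13 of the alternatives.

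Of 13 genes of glutathione supply and turnover, 4 rose and 2 fell with 0 earlier fasts, and 3 rose and 1 fell with 2. The shares called were 46.2% and 30.8%, the second near that of all such genes. Gclc, the catalytic subunit of the rate-limiting enzyme of glutathione synthesis, fell by 0.60 (limma adjusted p 0.000522) and 0.51 (0.00533). Oplah, which recovers glutamate from 5-oxoproline, rose by 1.28 and 1.22, and Cth, which makes cysteine, by 0.58 and 0.47. Chac2, which breaks down glutathione, changed by -0.62 (limma adjusted p 0.00665) and -0.49 (adjusted p 0.0511), the latter passing 0.05 in 14 of the alternatives.

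Of 15 other conjugating enzymes, 2 rose and 4 fell with 0 earlier fasts, and 2 rose and 2 fell with 2. The shares called were 40% and 26.7%, the second about that of all such genes. Inmt, an indole methyltransferase, changed by -1.74 and -1.67, and Hnmt, the histamine methyltransferase, by -0.85 and -0.75. Nnmt, which methylates nicotinamide, changed by 1.30 and 1.38, and As3mt, which methylates arsenic, by 1.16 and 1.06. All 8 changes were called without overlap between fed and fasted arrays. Of 5 exporters of conjugates 1 rose and 1 fell with 0 earlier fasts and 1 fell with 2, or 40% and 20% called, the second below the share of all such genes. Abcb11, the bile salt export pump, fell by 1.15 and 1.07, and Abcc3, which returns conjugates to the blood, rose by 0.51 and changed by 0.31 (adjusted p 0.0581).

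**Figure D4:**
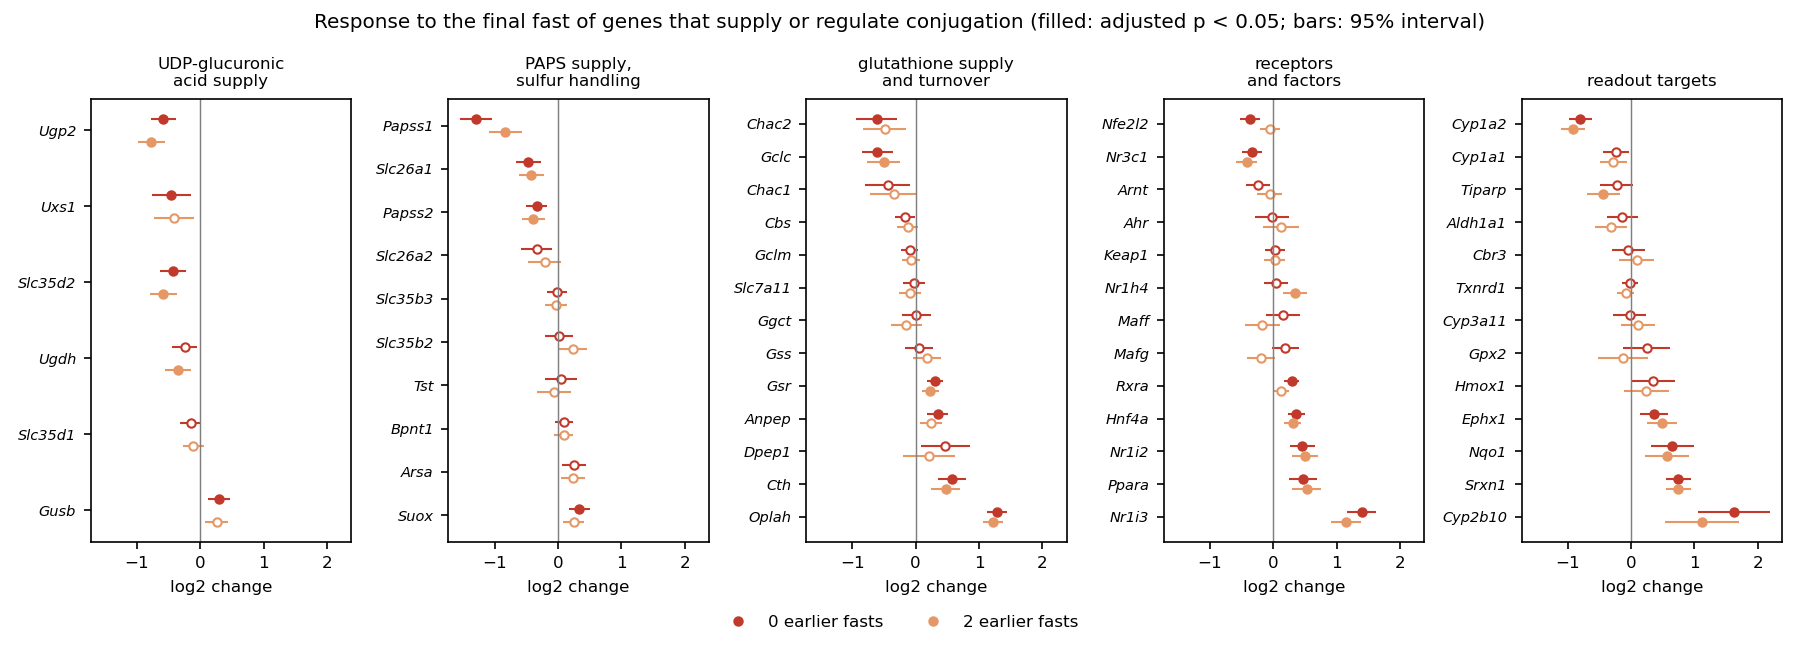
Log2 change to the final fast (x axis, fasted minus fed) of genes that supply cofactors for conjugation, of receptors and factors that regulate it, and of genes used as readouts of those factors (y axis), with 0 (red) and 2 (orange) earlier fasts; bars are 95% intervals and filled points passed an adjusted p of 0.05. Papss1 at -1.29 and Ugp2 at -0.58 lie left of 0, Oplah at 1.28 and Nr1i3 at 1.39 lie right of it.

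Of 13 receptors and factors of drug metabolism, 5 rose and 2 fell with 0 earlier fasts, and 5 rose and 1 fell with 2, or 53.8% and 46.2% called. Nr1i3, the gene of Car, rose by 1.39 (limma adjusted p 1.75e-11) and 1.15 (3.45e-09), without overlap. Nr1i2, the gene of Pxr, rose by 0.46 and 0.50, and Ppara by 0.47 and 0.52. Nfe2l2, the gene of Nrf2, changed by -0.37 (limma adjusted p 0.00067) with 0 and by -0.05 (adjusted p 0.803) with 2 earlier fasts, and the interaction had an unadjusted p of 0.00711 and an adjusted p of 0.999.

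Of 13 genes used as readouts of these factors, 4 rose and 1 fell with 0 earlier fasts, and 4 rose and 2 fell with 2, or 38.5% and 46.2% called. Cyp2b10, the readout of Car, rose by 1.63 (limma adjusted p 4.71e-05) and 1.12 (0.00655), Cyp1a2, induced by Ahr, fell by 0.80 and 0.92, and the Nrf2 target Srxn1 rose by 0.74 and 0.75. Nqo1, another Nrf2 target, rose by 0.65 (limma adjusted p 0.00642) and 0.57 (0.0268). The second call of Nqo1 was lost without fed replicate 1, 6 or 8 or without fasted replicate 2 or 3 with 2 earlier fasts, at changes of 0.48 to 0.54 and adjusted p of up to 0.0778.

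Because several of these enzymes differ between the sexes, 2 lists of other sex-biased liver genes were counted in these male mice. Of 12 male-biased genes 8 fell and none rose with 0 earlier fasts, and 7 fell and 1 rose with 2, or 66.7% called in each. Hsd3b5, a male-specific steroid dehydrogenase, changed by -5.22 and -4.78, and Selenbp2 by -2.52 and -2.63. Of 11 female-biased genes 3 rose and none fell in each comparison, or 27.3% called. In either direction, the shares were 12.5% and 11.6% of all genes, and 29.1% and 26.9% of those with a mean of 4 or more over all arrays. By direction, 6.25% and 6.06% of all genes rose, and 6.23% and 5.52% fell. Among the 3, Cyp17a1, a steroid hydroxylase, rose by 3.71 and 3.41 and Acot3, a peroxisomal thioesterase, by 2.93 and 3.14. The median change over the female-biased list was 0.04 and -0.02, and over the male-biased list -0.73 and -0.52. The part of sex-biased regulation in the changes of the conjugation enzymes was not tested.

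Variation between mice of the same group was also compared. Each array's deviation from its group mean was compared over 31 arrays within families, for the 171 pairs of members with a mean of 4 or more in some group, a measure chosen after the data were seen. Of these 43 pairs correlated at an adjusted p under 0.05 in permutation tests within groups (1e+05 resamples, 2-sided, adjusted over the 171), 39 of them positively, and the median r was 0.23. An absolute r of at least 0.45, the smallest among these 43 pairs, was found in 28.7% of the 171 pairs and in 3.69% of the 33158296 pairs of all 8144 genes with a mean of 4 or more in some group, where the median r was 0.031. The cutoff was taken from the 43 member pairs that passed, so these 25.1% of the 171 pairs lie at or above it by construction. Neighbouring copies make up part of the 171 pairs, and the 28.7% and 3.69% are a description. Ugt2b36 and Ugt2b5, neighbours in the cluster, had a Pearson's r of 0.81 (permutation p 1e-05, the smallest possible here, adjusted 0.00057) and a Spearman's rho of 0.81 (permutation p 1e-05, adjusted 0.000855). Without the 2 arrays farthest from the median r was 0.80, and within groups it was 0.86 in fed and 0.96 in fasted mice with 0 earlier fasts, and 0.68 and 0.51 with 2.

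Gstt1 and Gstt3 deviated together, at an r of 0.72 (permutation p 3e-05, adjusted 0.000977) and a rho of 0.72 (permutation p 2e-05, adjusted 0.00114), and r was 0.69 without 2 arrays and 0.56 to 0.93 within groups. Gstt1 and Gstt2, of the same cluster, did not pass, at an r of 0.04 (permutation p 0.859, adjusted 0.901) and a rho of 0.13 (permutation p 0.504, adjusted 0.658). Ugt2b1 and Ugt2b38 had an r of 0.64 (permutation p 0.00012, adjusted 0.00256), a rho of 0.62 (permutation p 0.00045, adjusted 0.00641), an r of 0.64 without 2 arrays and a range of 0.57 to 0.77 within groups. Gstp2 and Gstp3 deviated in opposite directions, at an r of -0.61 (permutation p 0.00022, adjusted 0.00313) and a rho of -0.55 (permutation p 0.00319, adjusted 0.026). Leaving 2 arrays out gave -0.55, and within groups r was -0.62 and -0.75 in fed and fasted mice with 0 earlier fasts, -0.92 in fed and 0.35 in fasted mice with 2 earlier fasts. The part of probes shared between copies in these correlations was not tested.

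**Figure D5:**
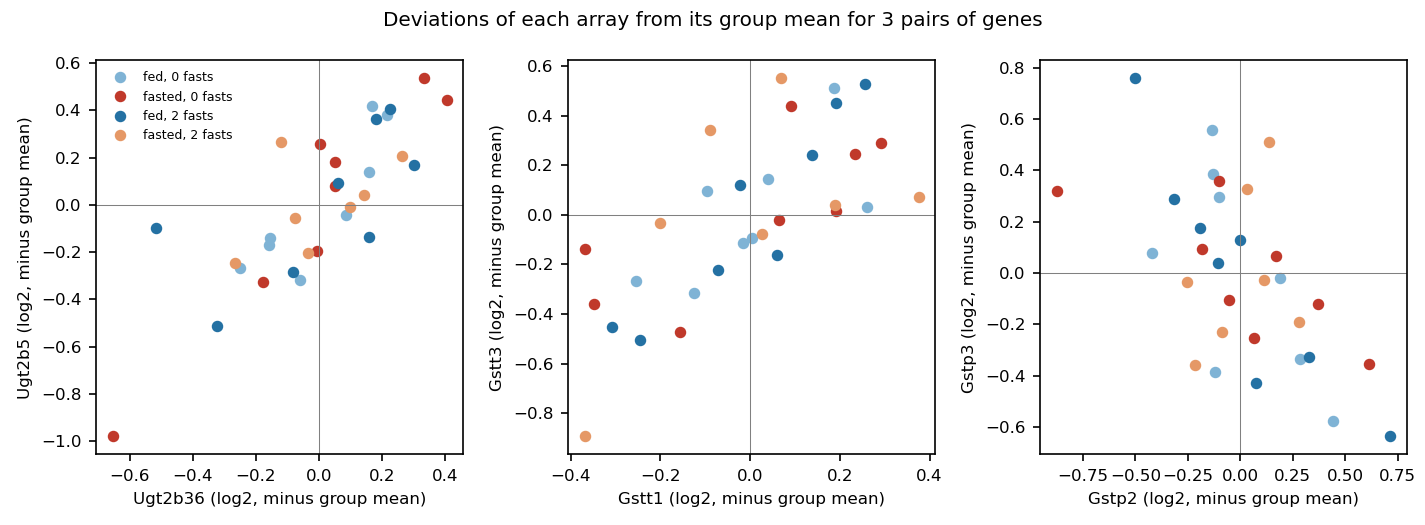
Deviation of each array from its group mean (log2, both axes) for 3 pairs of neighbouring genes, coloured by group. Ugt2b36 and Ugt2b5 (r 0.81) and Gstt1 and Gstt3 (r 0.72) rise together, while Gstp2 and Gstp3 (r -0.61) fall along the opposite diagonal.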

How the data were processed

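Per the labels' protocols, 100 ng of total liver RNA per mouse was labelled with biotin for Affymetrix whole-transcript arrays. The deposited values are log2 signals that the authors made with RMA, per the submitters' processing notes. RMA corrects background, normalises quantiles and summarises probe sets. Its version and the log base are not given in the sources used here, and log2 was assumed from RMA and from the range of values. Detection calls were not used here.

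Of 41345 probe sets, the platform annotation gave 1 symbol for 23521, several for 1814 and none for 16010. A gene with several probe sets was read by the one with the highest mean, which left 22180 genes. Groups were taken from the labels. All 31 arrays were fitted as 4 group means with limma 3.58.1 in R 4.3.3 and 6 contrasts were tested, 2-sided, with Benjamini-Hochberg adjustment over all genes at a threshold of 0.05. The p-values measure the spread between these mice. Replicate numbers were not used to pair the samples in the main fit. The counts and the median change among genes with a mean of 4 or more over all arrays were added after the data were seen. Correlations of deviations used permutations within groups. Promoter letters were searched on both strands of RefSeq windows of GRCm38.p6 with Python 3.11.15, and matplotlib 3.10.9 drew the plots. No protein sequences were compared.

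The 50 members and all gene lists were chosen with earlier results of these data known. Every member may be named. Group values are given for called members, up to 10 per family with the largest changes, and for the 3 smallest p of a history comparison or interaction; up to 4 called genes of each pathway list, and 2 of a sex or marker list, are named. Ugdh, Ephx1 and the members that were not called were named after their values were seen. On simulated data with 22180 genes, 200 of them changed in each of 10 draws, the fit recovered 98.8 and 97.7% of 2-fold changes in the responses with 0 and 2 earlier fasts, 86 and 85.1% of 1.5-fold and 17.6 and 12.7% of 1.2-fold changes. For history in fed and in fasted mice it recovered 82.5 and 80.4% of 1.5-fold changes. The simulated noise was normal and independent between genes. Recovery with fewer changed genes, where the adjusted threshold is stricter, or with genes that vary together was not tested. Alternatives covered the probe set rule, the samples fitted, variance moderation, dim genes, normalisation, array weights, a replicate block and leaving out each array. The 50 members had 50 probe sets with their symbol alone, so the probe set rule could not change a member's own value. Leaving out an array of a group outside a comparison left the change as it was and could alter only its p-value.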

Additional observations from a re-analysis of the deposited data

Results flagged for a closer look

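In each group, the highest or lowest array was compared with its nearest neighbour by Dixon's criterion at the 95% level for 73 genes, of which 34 were conjugation enzyme genes and the others pathway and marker genes. Of 292 gene and group combinations 12 held an array that stood apart, where chance marks about 1 in 20. Of the members, Sult1d1 stood apart in fed replicate 7 with 0 earlier fasts, at 7.92 the lowest of its group, and in fasted replicate 2 with 2 earlier fasts, at 9.13 the highest. The same fasted replicate 2 held the highest Sult1e1, at 2.85. Ugt2b34 was lowest in fasted replicate 4 with 2 earlier fasts, at 9.46, and Ugt2b37 was highest in fasted replicate 3 with 0 earlier fasts, at 4.53.

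Of the other genes, fasted replicate 5 with 0 earlier fasts stood apart for As3mt at 8.64, Cyp17a1 at 10.53 and Ugp2 at 8.13, the last as the lowest of its group. Fasted replicate 4 with 2 earlier fasts stood apart for Lyve1, an endothelial marker, at 7.67 and for Nr1i3 at 8.32. Col3a1 was at 3.60 in fasted replicate 1 with 2 earlier fasts, and Ugdh at 9.74 in fed replicate 2 with 2 earlier fasts.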

How the results depend on the processing

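The number of members called was 21 to 24 over all alternatives for the response with 0 earlier fasts and 15 to 20 with 2, and leaving out each array gave 21 to 24 and 15 to 19. Gst calls ranged from 12 to 13 and 9 to 11, Ugt calls from 4 to 6 and 3 to 4, and Sult calls from 4 to 6 and 3 to 6. The 4 tests of history and interaction called 0 members under every alternative that was run. The interaction and the averaged history need all 4 groups, so they were not fitted with only the groups compared. With the replicate number as a block, 24 and 17 members were called in the responses. The deviations of same-numbered arrays of different groups had a median r of 0.03 over 45 pairs, of which 3 were over 0.1. For arrays with different numbers the median r was -0.003 over 315 pairs, of which 6 were over 0.1. The labels do not say what the numbers stand for, and a day or batch shared by them was not tested. Under the block Uxs1 with 0 earlier fasts was no longer called (adjusted p 0.062), while Ugt2b5 with 0 (0.0323), Sult5a1 with 2 (0.0484) and Suox with 2 (0.0449) were. Sult calls with 2 earlier fasts went from 3 to 5 without dim genes, to 5 without fed replicate 2 and to 6 without fasted replicate 1 with 2 earlier fasts. Of genes not called with 2 earlier fasts, Chac2 passed 0.05 in 14 alternatives, Suox in 13, Sult1b1 and Abcc3 in 8 each, Gstm7 in 7, Gusb in 6, Sult5a1 in 5, Uxs1 in 3, Gstm2 in 2 and Gstp3 in 1, and with 0 Sult5a1 passed in 5, Ugdh in 2 and Ugt2b5 in 1. The sign turned when an array was left out for Ugt2b37 with 0 earlier fasts (-0.14) and with 2 (0.00761, 0.0470, 0.0536 and 0.0544), Ugt3a2 with 0 (0.00738) and Gstm4 with 2 (0.0164), none of them called. Ephx1, a readout that was called at 0.36 with 0 earlier fasts, gave 0.31 to 0.34 at adjusted p values of 0.0502 to 0.0645 without fed replicate 5 or 6 or fasted replicate 6. Adgre1, a macrophage marker called at -0.69 with 2, gave -0.56 to -0.66 at up to 0.097 without fed replicate 1 or 7 or fasted replicate 2 or 5. The cause of these changes was not tested.

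The number of arrays limits precision, dim probe sets have no detection limit here, and probes shared between gene copies were not tested. The labels name no batch, so none was tested.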
